A study of Sus scrofa with 4 samples.

Results

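Plasma cells were examined in the red zone of the pig meniscus as 72 cell barcodes, chosen from 12538 red zone barcodes with at least 200 detected genes (27782 barcodes in all 4 libraries). A barcode was taken when it held at least 2 UMIs (unique molecular identifiers, each standing for 1 captured transcript) of MZB1, at least 2 of JCHAIN and at most 2 of C1QA, C1QB and C1QC together. MZB1 is a chaperone of the endoplasmic reticulum (ER) in antibody-secreting cells, JCHAIN joins antibody monomers into polymers, and the C1Q genes mark macrophages. These values chose the barcodes, so their levels are given as a description, with no test.

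The study took the lateral and the medial meniscus of the pig (Sus scrofa), cut each into its outer red and inner white zone and made 1 library from each of the 4 pieces by droplet sequencing of single cells at the 3′ end. The synovium had been dissected away, and cells were freed by Pronase followed by Collagenase P. The labels give no animal, age, sex, strain or treatment, and no second library of any piece, so no difference between libraries could be tested. All intervals below cover counting error only.

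Plasma cells are the end stage of the B cell lineage. They have shut down most of the B cell programme under transcription factors such as PRDM1 and XBP1, have expanded the ER, and secrete antibody as their main product. Outside the lymphoid organs and bone marrow they persist where stromal and myeloid cells supply survival ligands, among them the ligands of the receptor BCMA, which TNFRSF17 encodes. The red zone is the vascular part of the meniscus and the white zone the avascular part.

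The lateral red zone held 56 of these barcodes among 5715, a share of 0.980% (95% exact Clopper-Pearson interval 0.741 to 1.27%). The medial red zone held 16 among 6823, a share of 0.235% (0.134 to 0.381%). The lateral share was 4.18 times the medial share and the counting intervals did not overlap, but each comes from 1 library. The same rule found 0 barcodes among 7382 of the lateral white zone, which allows a share of up to 0.0406% (3 counts of the total; the exact Clopper-Pearson upper bound is 0.0500%), and 0 among 7807 of the medial white zone, which allows up to 0.0384% (0.0472%). MZB1 had 0 UMIs in either white zone library. JCHAIN had 13 and 32 UMIs there, in the lateral and medial library, and never more than 1 in a barcode. The red zone libraries held 9666319 and 11878284 UMIs, lateral and medial, and the white zone libraries 13719381 and 14902274. The white zone libraries thus held more UMIs in total, over more barcodes. Per barcode the medians lay closer, at 1459 and 1488 UMIs in the red zone barcodes outside the rule and 1495 and 1617 in the white zone barcodes.

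MZB1 ran from 2 to 28 UMIs per lateral barcode (median 7) and from 2 to 29 per medial barcode (median 11). JCHAIN spread much further, from 2 to 519 (median 15) in the lateral and from 2 to 366 (median 51) in the medial library. The 2 libraries overlapped over nearly the whole range of both genes. The plasma cell barcodes held 50.3% of the lateral library's MZB1 UMIs and 80.2% of the medial library's, and 85.3% and 96.9% of the JCHAIN UMIs.

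The thresholds cut through a continuum in JCHAIN. Exactly 2 UMIs of JCHAIN were found in 10 lateral barcodes and 1 medial barcode among those chosen, and exactly 2 of MZB1 in 2 and 2. Just outside the rule stood 78 lateral barcodes with at least 2 UMIs of MZB1 and fewer than 2 of JCHAIN, 59 of them with 0 and 19 with 1. The medial library had 4 such barcodes, 3 with 0 and 1 with 1. Another 6 lateral barcodes and 0 medial ones met the JCHAIN limit and missed the MZB1 limit, and the C1Q limit removed 2 and 0. By MZB1 alone, 136 lateral barcodes (2.38%) and 20 medial ones (0.293%) held at least 2 UMIs.

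Depth and mixed barcodes were looked at in the same libraries. The plasma cell barcodes held a median of 3567.5 UMIs in the lateral library (550 to 10381) and 3096.5 in the medial (1658 to 6708), against 1459 and 1488 in the other barcodes, but a median of only 505 and 723 genes, against 724 and 732. Scrublet, a doublet caller, called 131 lateral barcodes and 1 medial barcode, and none of the 72 was among them; with 1 call it had not worked in the medial library. The lateral and medial red libraries shared 11 barcode sequences, and 0 of the 72 were among them.

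Transcripts of a few features without a gene symbol filled these barcodes. The 4 unnamed features with the most UMIs in the 72 barcodes, picked after their values were seen, were ENSSSCG00000038719, ENSSSCG00000036224, ENSSSCG00000037775 and ENSSSCG00000036983. Neither the files nor the reference table of gene names pairs them with a symbol, and a list of 19 immunoglobulin symbols matched 0 features in the files. Together they made up 63.2% of the UMIs of the lateral plasma cell barcodes and 41.9% of the medial ones, against 2.27% and 0.0585% of the UMIs of the other barcodes. The other barcodes include those just outside the rule, with MZB1 but fewer than 2 UMIs of JCHAIN. In the 78 lateral ones ENSSSCG00000038719 held 61.1% and ENSSSCG00000036224 held 9.91% of the UMIs. The value of 2.27% is therefore not the level in other cell types. ENSSSCG00000038719 alone held 50.5% of the lateral and 30.0% of the medial plasma cell UMIs. ENSSSCG00000036224 held 6.50% and 4.36%, ENSSSCG00000037775 held 5.43% and 7.52%, and ENSSSCG00000036983 held 0.798% and 0.0224%. From barcode to barcode the share of the 4 ran from 2.65 to 86.3% in the lateral library (median 67.1%) and from 0.273 to 77.9% in the medial (median 44.6%).

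ENSSSCG00000038719 and ENSSSCG00000036224 almost never filled the same barcode. At least 100 UMIs of the pair were present in 71 of the 72 barcodes, 56 lateral and 15 medial. In 70 of these 71 barcodes (98.6%) at least 95% of the pair's UMIs came from 1 of the 2 features, and in 66 at least 99%. The remaining barcode, in the lateral library, had 230 UMIs of ENSSSCG00000038719 and 40 of ENSSSCG00000036224, so its leading feature held 85.2%. ENSSSCG00000038719 led in 42 lateral and 11 medial barcodes and ENSSSCG00000036224 in 14 and 4. Where it led, ENSSSCG00000038719 ran from 230 to 6106 UMIs in the lateral library (median 2577.5) and from 212 to 4099 in the medial (median 1450). ENSSSCG00000036224 ran from 171 to 1984 (median 992.5) and from 356 to 889 (median 619.5) where it led.

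**Figure D1:**
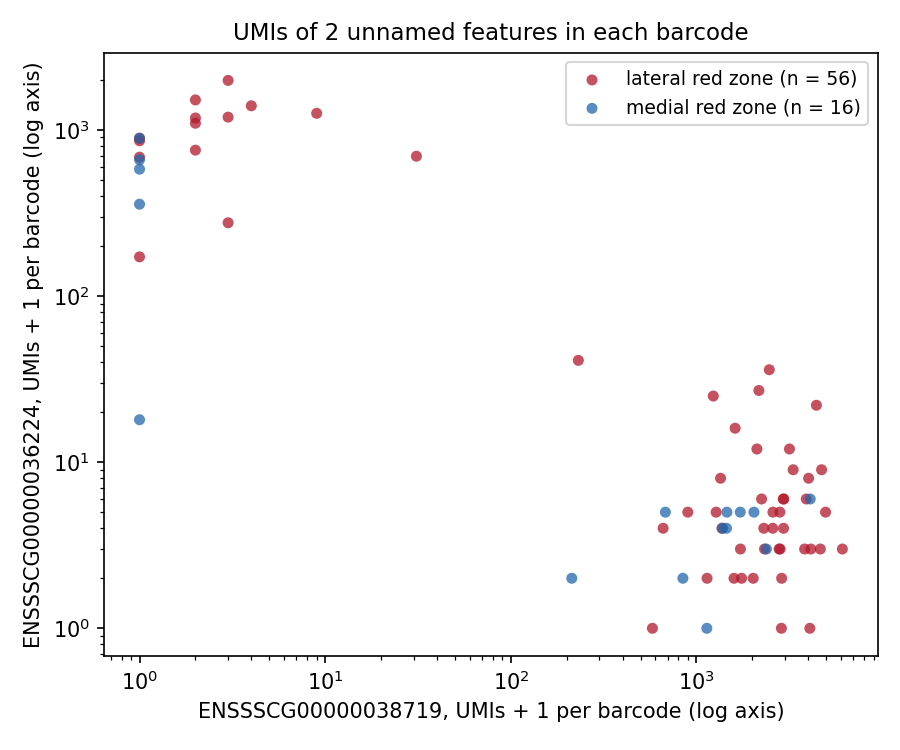
UMIs of ENSSSCG00000038719 (horizontal) and ENSSSCG00000036224 (vertical) in each of the 56 lateral and 16 medial red zone plasma cell barcodes, both axes logarithmic with 1 UMI added. Each point is 1 barcode; the points lie along the 2 sides of the plot, and the lateral barcode with 230 and 40 UMIs lies between the arms.

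The other 2 features also kept apart, and JCHAIN differed between the barcodes that held them. ENSSSCG00000037775 reached 100 UMIs in 22 lateral and 7 medial barcodes and ENSSSCG00000036983 in 8 and 0. In 0 barcodes did both reach it, and in 26 and 9 neither did. The barcodes high in ENSSSCG00000037775 held 0 UMIs of ENSSSCG00000036983, and those high in ENSSSCG00000036983 held at most 21 of ENSSSCG00000037775.

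JCHAIN was highest where ENSSSCG00000037775 was high. It ran there from 14 to 519 UMIs in the lateral barcodes (median 246.5) and from 2 to 366 in the medial (median 175). In the 8 lateral barcodes high in ENSSSCG00000036983 it ran from 2 to 20 (median 5). In the barcodes with neither it ran from 2 to 139 in the lateral (median 6.5) and from 3 to 123 in the medial library (median 28). Of 27 barcodes with at least 100 UMIs of JCHAIN, 24 also had at least 100 of ENSSSCG00000037775, and of 30 with fewer than 10, 1 did. Across the barcodes of each library, which share depth and free RNA, Spearman's rho between JCHAIN and ENSSSCG00000037775 was 0.73 over 56 lateral and 0.75 over 16 medial barcodes. For JCHAIN and MZB1 it was 0.21 and 0.46. JCHAIN had been used to choose the barcodes, with a lower limit only.

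**Figure D2:**
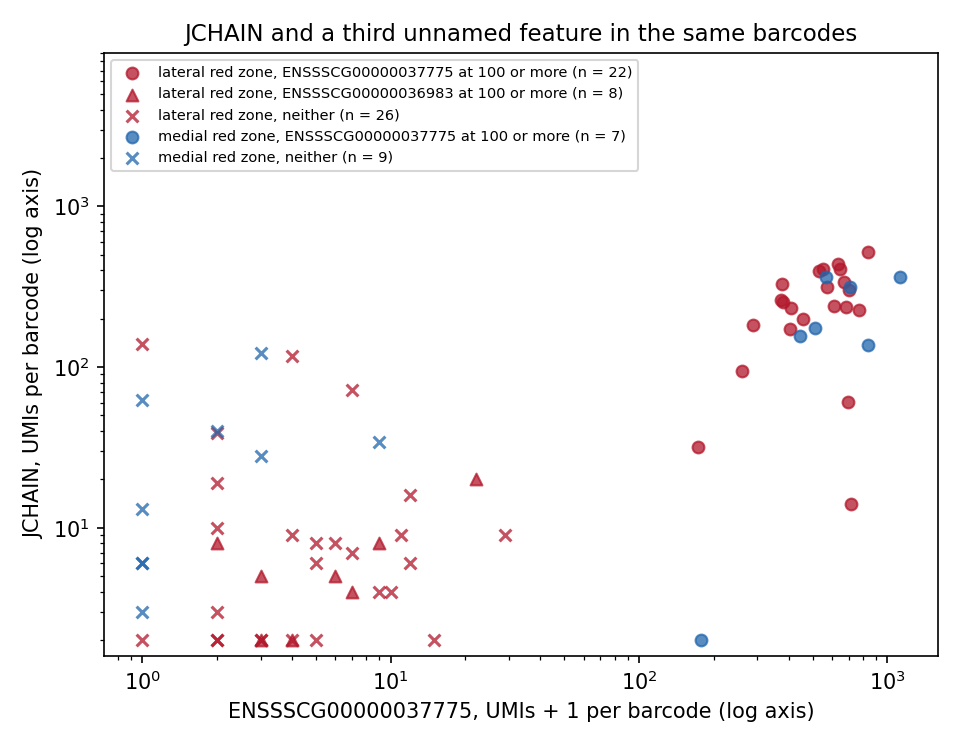
JCHAIN UMIs (vertical) against ENSSSCG00000037775 UMIs with 1 added (horizontal), logarithmic axes, 1 point per plasma cell barcode. Circles mark the 22 lateral and 7 medial barcodes with at least 100 UMIs of ENSSSCG00000037775, triangles the 8 lateral barcodes with at least 100 of ENSSSCG00000036983, and crosses the 26 and 9 with neither; the circles hold most of the high JCHAIN values.

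The leading feature of the first pair was set against these kinds of barcode. Of the 18 barcodes led by ENSSSCG00000036224, 3 were high in ENSSSCG00000037775, 1 in ENSSSCG00000036983 and 14 in neither. The barcodes just outside the rule, with MZB1 but fewer than 2 UMIs of JCHAIN, showed the same separation of the pair. Of the 78 lateral ones, 77 held at least 100 UMIs of the pair, and in all 77 at least 95% came from 1 feature, ENSSSCG00000038719 in 53 and ENSSSCG00000036224 in 24. ENSSSCG00000037775 reached 100 UMIs in 1 of the 78 and ENSSSCG00000036983 in 18. Their median depth was 2915.5 UMIs.

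UMIs of these features were also found in barcodes gated as other cells, in larger shares in the lateral library for ENSSSCG00000038719. At least 1 UMI of ENSSSCG00000038719 was found in 52 of 56 lateral plasma cell barcodes, and also in 307 of 632 lateral barcodes gated as endothelial (at least 3 UMIs of PECAM1, VWF and CDH5) and 210 of 389 gated as macrophage (at least 10 UMIs of C1Q). In the medial library it was found in 11 of 16, 92 of 777 and 55 of 458. ENSSSCG00000037775 was less even over the gates. It had a UMI in 25 of 632 lateral endothelial barcodes and 130 of 389 lateral macrophage barcodes, and in 16 of 777 and 170 of 458 medial ones. With every barcode thinned to 500 UMIs these numbers were 10 and 55 in the lateral and 4 and 76 in the medial library, so the gates differed at equal depth too. The rule genes were rare in the endothelial gate, with MZB1 in 1 and 5 barcodes and JCHAIN in 8 and 8. In the lateral macrophage gate MZB1 was in 4 and JCHAIN in 9 of 389 barcodes. JCHAIN had a mean of 1.83 UMIs per barcode there, all from those 9, against 0.0127 in the lateral endothelial gate. The mean of ENSSSCG00000038719 was 10.0 against 0.880. The lateral macrophage gate thus held some barcodes rich in JCHAIN, and whether they hold 2 cells was not tested.

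Among genes with a symbol, and beyond the rule genes, genes of plasma cell identity stood highest. UMIs were summed over the plasma cell barcodes and over all other barcodes of each red zone library and scaled to a common total as CPM. A gene was called when the ratio of CPM + 20 was 4-fold or more in the same direction in both libraries, among genes with a mean of at least 50 CPM over the 4 sums. Of 2047 genes so compared, 19 were higher (0.928%) and 287 lower (14%). The 19 were MZB1, JCHAIN, 8 features without a symbol and 9 named genes. With so much of the total in 4 features, every other gene takes a smaller share of it, and the median log2 ratio over the 2047 genes was -1.31 in the lateral and -0.76 in the medial library. A second scaling, added after this was seen, took CPM over the UMIs outside the 4 features and the 2 rule genes. The medians then were -0.01 and 0.06, and 69 of 2716 genes were higher (2.54%) and 108 lower (3.98%), so higher genes made up 39.0% of the calls in place of 6.21%. Values below are over all UMIs unless the second scaling is named.

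TNFRSF17, the BCMA receptor that transmits survival signals, had 49 UMIs in 23 of the 56 lateral barcodes and 15 in 6 of the 16 medial ones. Its level was 224 CPM in the lateral (95% exact Poisson interval 166 to 296) and 258 CPM in the medial plasma cell barcodes (145 to 426), against 1.91 and 0.0847 CPM in the other barcodes, a log2 ratio of 3.48 and 3.79. POU2AF1, a B lineage transcriptional coactivator, stood at 251 and 517 CPM against 5.85 and 0.762, a log2 ratio of 3.39 and 4.69. Outside the plasma cell barcodes TNFRSF17 had 18 UMIs in the lateral and 1 in the medial library, and POU2AF1 had 55 and 9, so the lateral library held as many POU2AF1 UMIs outside these barcodes as inside.

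SLAMF7, a surface receptor of plasma cells and other lymphocytes, stood at 854 and 706 CPM against 88.0 and 39.9, a log2 ratio of 3.02 and 3.60. It was not limited to them, since 83 of 389 lateral and 92 of 458 medial macrophage barcodes held a UMI, against 49 of 56 and 13 of 16 plasma cell barcodes. DERL3, a part of the machinery that exports misfolded proteins from the ER, stood at 187 and 293 CPM against 7.01 and 1.52 (log2 ratio 2.94 and 3.86). EAF2, a transcription elongation factor, stood at 114 and 138 CPM against 1.70 and 0.254 (log2 ratio 2.63 and 2.96). TXNDC5, an ER thiol oxidoreductase, had the most UMIs of these genes, at 1229 and 1723 CPM against 185 and 164 (log2 ratio 2.61 and 3.25), in 53 of 56 and 15 of 16 barcodes.

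The remaining named genes above 4-fold came from other classes. SEC11C, a catalytic subunit of the signal peptidase, stood at 388 and 620 CPM against 54.2 and 56.1 (log2 ratio 2.46 and 3.07). CD69, a lymphocyte activation and retention receptor, had a log2 ratio of 2.59 and 2.63, and RAC2, a small GTPase of blood cells, of 2.27 and 2.77. At equal depth the background differed from gene to gene. Thinned to 500 UMIs, TNFRSF17 had a UMI in 7 of 56 lateral plasma cell barcodes and in 0 of 632 endothelial, 0 of 389 macrophage and 0 of 78 T or NK barcodes (at least 2 UMIs of CD3D, CD3E, CD3G and CD2), against 23, 0, 1 and 0 without thinning. In the medial library the thinned counts were 1 of 16, 0 of 777, 0 of 458 and 0 of 69, too few to order. SLAMF7, thinned, had a UMI in 21 of 56 lateral plasma cell barcodes against 44 of 389 macrophage barcodes, but in the medial library in 2 of 16 against 44 of 458. XBP1, thinned, was in 2 of 56 lateral plasma cell barcodes, 31 of 389 macrophage and 32 of 632 endothelial barcodes. In the medial library it was in 5 of 16, 17 of 458 and 41 of 777. The lateral share of XBP1 was thus not above those of the gates at 500 UMIs, but it was at other depths. Thinned to 1000 UMIs, XBP1 was in 14 of 55 lateral plasma cell, 41 of 332 macrophage and 52 of 447 endothelial barcodes. Without thinning it was in 29 of 56, 75 of 389 and 108 of 632. The thinned UMIs include those of the 4 unnamed features, which made up 63.2% of the lateral and 41.9% of the medial plasma cell UMIs. At an equal total, fewer UMIs were therefore left for other genes in plasma cell barcodes than in barcodes with few UMIs of these features. The thinned shares of plasma cell barcodes are low for that reason too.

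The list of plasma cell identity had 24 genes, of which 22 were in the files and 11 passed the filter. Of the 11, 6 were higher and 0 lower, with a median log2 ratio of 2.61 in the lateral and 2.96 in the medial library. In the second scaling 10 of 11 were higher, with medians of 4.04 and 3.75. The 4 added were PRDM1, XBP1, TENT5C and CD79A. PRDM1, the repressor of the B cell programme, had a log2 ratio of 1.98 and 2.26, and 3.44 and 3.07 in the second scaling. XBP1, the transcription factor of ER expansion, had 0.69 and 1.46, and 2.15 and 2.30 in the second. CD79A, a signalling chain of the B cell receptor, had 0.64 and 1.30, and 2.00 and 2.10. ELL2, an elongation factor that favours the secreted form of antibody mRNA, was not called in either scaling (-0.60 in both libraries over all UMIs).

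Several textbook plasma cell genes were barely seen. SDC1, which encodes the surface marker CD138, had 4 UMIs in the lateral and 1 in the medial plasma cell barcodes, 18.3 and 17.2 CPM, against 39.2 and 40.3 CPM in the other barcodes. IRF4, a transcription factor of the plasma cell state, had 5 and 1 UMIs, CD38 had 2 and 3, and TNFRSF13B, a receptor for the same ligands as TNFRSF17, had 6 and 3. These counts are too low to rank the genes. CD27 and SPAG4 had 0 UMIs in the plasma cell barcodes of both libraries, and FCRL5 and FKBP11 were not found by symbol.

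At least 3 of 9 genes (TNFRSF17, POU2AF1, DERL3, SLAMF7, TXNDC5, PRDM1, XBP1, EAF2 and SEC11C) were detected in 69 of the 72 barcodes, with a median of 5 in the lateral and 6.5 in the medial library. These 9 were picked with the results of these same barcodes known, so the count describes the barcodes and does not test the label. The label was looked at against other cell types. The 19 mature B cell genes in the files had 229 and 139 UMIs in all, lateral and medial, of which CD74 held 204 and 128. Of 1 such gene compared over all UMIs 0 were called, and in the second scaling 1 of 3 was higher, CD79B, a signalling chain of the B cell receptor, with 8 and 3 UMIs. MS4A1, the CD20 gene, had 2 UMIs in 1 lateral barcode and 0 in the medial ones, and PAX5, CD22 and BCL6 had 0 in both. The 15 T or NK genes in the files had 5 and 2 UMIs in all, the 14 myeloid genes 2 and 0, where the C1Q limit of the rule fixes part of the count, and the 6 mast cell genes 2 and 0. Of 10 plasmacytoid dendritic cell genes, TCF4 and IRF8 were present and not called, and IRF7, SPIB, PLD4, TLR9, PTCRA and PACSIN1 had 0 UMIs in both libraries.

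Most genes of the secretory pathway missed the 4-fold limit over all UMIs, and their medians lay above those of all genes compared. Of 72 genes compared in 5 lists (ER entry, ER folding, N-glycosylation, ER-associated degradation with the unfolded protein response, and ER to Golgi transport), 1 was higher and 0 lower, with a median log2 ratio of -0.18 and 0.35 against -1.31 and -0.76 for all genes compared. In the second scaling 17 of 77 were higher and 0 lower, with medians of 1.28 and 1.15 against -0.01 and 0.06. Higher calls in these and all other lists are to be read against the share of all genes compared that were higher. That share was 0.928% over all UMIs and 2.54% in the second scaling, so 1 of 72 was near it. The calls were spread unevenly over the 5 lists, as follows.

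Of the ER entry genes, 5 of 20 were higher in the second scaling, and 1 of 18 over all UMIs. SSR4, a subunit of the translocon-associated complex, was present in all 56 lateral and all 16 medial barcodes, at 1288 and 2051 CPM against 457 and 727, a log2 ratio of 1.46 and 1.47 that became 2.98 and 2.34 in the second scaling. SPCS1, a subunit of the signal peptidase, had 1.54 and 2.28, and 3.05 and 3.14 in the second. The other subunits SPCS2 and SPCS3 were also called there, as was SEC11C. SSR2, a partner subunit of SSR4, had only 1.07 and 0.62 in the second scaling and -0.44 and -0.23 over all UMIs, and SEC61B, of the translocation channel, had 1.90 and 1.85 in the second.

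Of the ER folding genes, 0 of 19 were higher over all UMIs and 7 of 20 in the second scaling. HSP90B1, the ER paralog of the chaperone HSP90, had the most UMIs of the list, at 1973 and 2378 CPM against 834 and 791 (log2 ratio 1.22 and 1.56, and 2.75 and 2.43 in the second scaling). PRDX4, an ER peroxiredoxin, had 2.85 and 2.98 in the second scaling, and PDIA6, a disulfide isomerase, 2.60 and 2.71. HSPA5, the chaperone BiP, stayed below the limit, at 1.30 and 1.81 in the second scaling and -0.21 and 0.95 over all UMIs. BiP was thus not called beside its partner HSP90B1, in either scaling.

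Of the degradation and unfolded protein response genes, 0 of 12 were higher over all UMIs and 5 of 14 in the second scaling. HERPUD1, a membrane protein of ER-associated degradation, had a log2 ratio of 2.76 and 2.49 in the second scaling (1.24 and 1.63 over all UMIs). EIF2AK3, the stress sensor PERK, had 3.66 and 2.63 in the second (2.18 and 1.83 over all UMIs), from 70 and 10 UMIs. ATF4, the transcription factor translated after PERK acts, had 0.67 and 0.11 in the second and -0.84 and -0.75 over all UMIs. SELENOS, an ER membrane selenoprotein, had 2.04 and 1.36 in the second scaling and was not called.

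The N-glycosylation and ER to Golgi lists had no calls. Of the N-glycosylation genes 0 of 8 were called in either scaling, with medians of 1.50 and 1.27 in the second, against 1.30 and 1.18 for ER entry and 1.28 and 1.63 for ER folding. DDOST, a subunit of the oligosaccharyltransferase, had 1.43 and 2.05 there. Of the ER to Golgi genes 0 of 15 were called in either scaling, with medians of 0.42 and 0.76 in the second. KDELR1, which returns escaped ER proteins, had 1.00 and 0.83 there, and GOLGB1, a Golgi tether, 1.58 and 1.80.

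**Figure D3:**
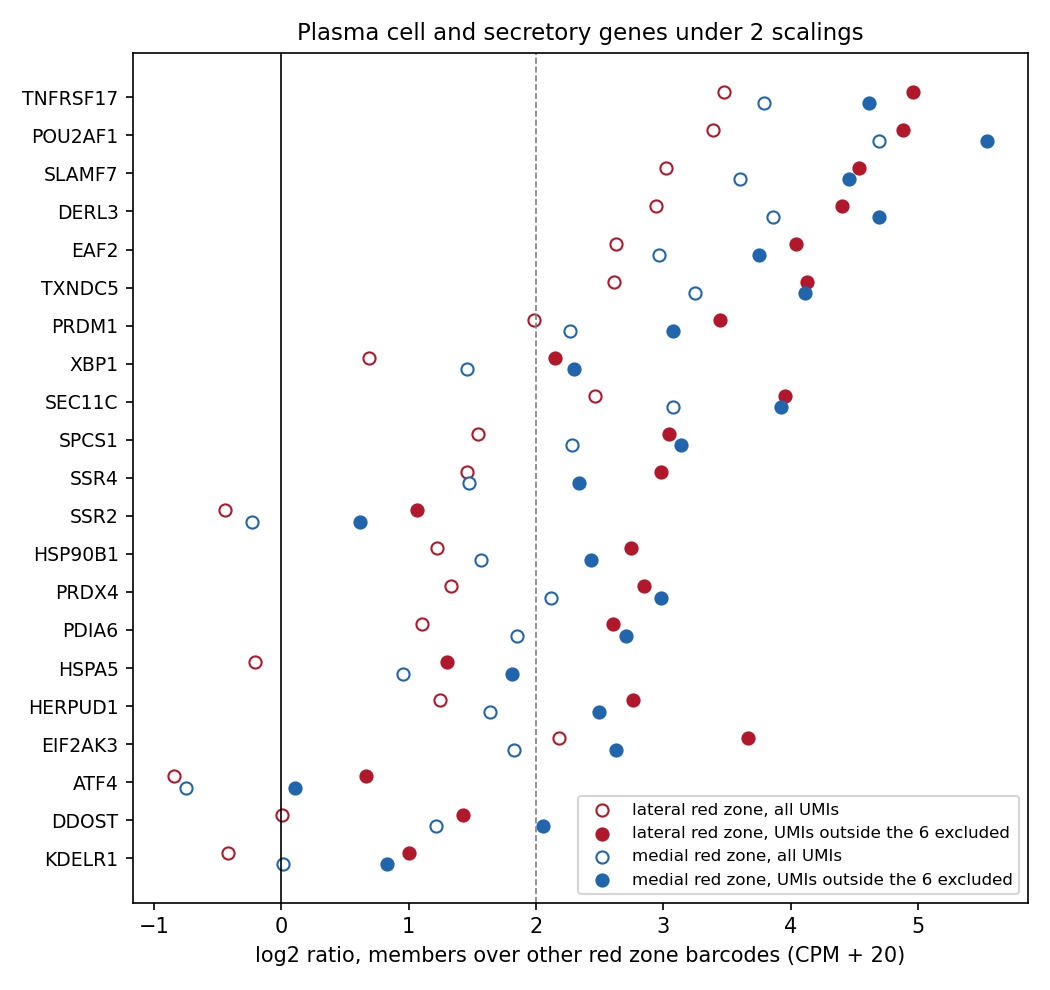
Log2 ratio of CPM + 20 in plasma cell barcodes over all other barcodes of the same red zone library, for 21 plasma cell and secretory genes, lateral in red and medial in blue. Open circles use all UMIs and filled circles the UMIs outside the 4 unnamed features and the 2 rule genes; the dashed line marks 4-fold, which TNFRSF17 passes at 3.48 and 3.79 and HSP90B1 passes only in the second scaling.

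Homing and survival receptors were sparse. Of 6 genes compared, 2 were higher (TNFRSF17 and CD69) and 0 lower, and in the second scaling 4 of 8, with CCR2 and ITGB7 added. CCR2, a chemokine receptor of inflammatory homing, had 22 UMIs in 17 lateral barcodes and 5 in 4 medial ones, at 100 and 86.2 CPM against 4.36 and 1.78. ITGB7, the integrin chain of mucosal homing, had 8 UMIs in 7 lateral and 7 in 7 medial barcodes. CXCR4, the receptor for the retention chemokine CXCL12, had 37 UMIs in 17 lateral and 8 in 6 medial barcodes (log2 ratio 0.63 and 0.71), and was not called in either scaling.

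TNFRSF17 and CXCR4 were divided between the kinds of barcode defined by the unnamed features. TNFRSF17 was detected in 15 of 22 lateral barcodes high in ENSSSCG00000037775, in 3 of 8 high in ENSSSCG00000036983 and in 5 of 26 with neither. In the medial library it was detected in 4 of 7 and 2 of 9, high and neither. CXCR4 went the other way, with 0 of 22, 5 of 8 and 12 of 26 in the lateral library and 1 of 7 and 5 of 9 in the medial. CCR10, the receptor for the mucosal chemokine CCL28, was found in 3 of 22 and 1 of 7 barcodes high in ENSSSCG00000037775 and in 0 of the others. POU2AF1 was in 10 of 22, 5 of 8 and 15 of 26 lateral barcodes, and in 6 of 7 and 6 of 9 medial ones. Depth outside the 4 features was a median of 1252, 1260 and 949.5 UMIs in the 3 lateral kinds and 1501 and 1788 in the 2 medial ones, and its part in these counts was not tested. These splits were noticed in the data, the genes were picked after their values were seen, and no test was made.

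Genes of antigen presentation were not called. CD74, the invariant chain of MHC class II, had 204 UMIs in 50 lateral and 128 in 16 medial barcodes, with a log2 ratio of -1.59 and -0.66 over all UMIs and -0.08 and 0.21 in the second scaling. SLA-DQB1, a class II chain, had -1.58 and -0.39, and -0.12 and 0.45 in the second. B2M, the light chain of MHC class I, stood at 7108 and 7634 CPM against 7017 and 6548 (log2 ratio 0.02 and 0.22, and 1.55 and 1.09 in the second scaling).

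The 10 lowest named genes were C4BPA, CCL19, TFPI2, PRELP, CXCL2, CCN2, THBS1, CST3, TIMP3 and PRSS23, and all 10 were also called in the second scaling. C4BPA, a complement inhibitor, had 1 UMI in each library's plasma cell barcodes, at 4.57 and 17.2 CPM (upper limits 25.5 and 96.0), against 1398 and 1077 CPM in the other barcodes. CCL19, a chemokine for lymphocytes and dendritic cells, had 0 and 1 UMIs, against 899 and 977 CPM. CST3, a secreted protease inhibitor, was still found in 26 of 56 and 7 of 16 barcodes, at 306 and 603 CPM against 6866 and 6522.

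Lower calls in the lists are to be read against the 14% of all genes compared that were lower over all UMIs and 3.98% in the second scaling. Of 11 fibroblast and matrix genes compared, 6 were lower and 0 higher, and in the second scaling 1 of 12 was lower. All 5 myeloid genes compared were lower in both scalings, where the rule's C1Q limit acts, and 0 of 2 endothelial genes were called. Of the niche ligands that other cells make for plasma cells, 5 of 5 were lower (3 of 5 in the second scaling). Lower calls also fell on 3 of 5 mural, 3 of 4 chondrocyte, 3 of 12 immediate-early and heat shock and 4 of 9 interferon response genes, and in the second scaling on 2, 2, 1 and 0 of 10. No MHC class I gene, of 2, and no mitochondrially encoded gene, of 12, was called in either direction, and 0 erythroid genes passed the filter over all UMIs. Matrix transcripts came from few barcodes: COL1A1, COL1A2, COL3A1, DCN and COMP together had at least 20 UMIs in 2 lateral and 3 medial barcodes, which held 88.9% and 98.8% of those UMIs in the plasma cell barcodes, and the median barcode had 1. Their number in the same barcodes as a plasma cell transcriptome is a measured fact of 5 barcodes, and whether each holds 2 cells was not tested.

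The medial and lateral plasma cell barcodes were set side by side over 734 genes with at least 20 UMIs in both together. Of these, 14 were 4-fold or more higher in the medial library (1.91%) and 3 in the lateral library (0.409%), with a median log2 ratio, medial over lateral, of 0.59. In the second scaling the median was -0.03, and 7 of 728 were medial-higher (0.962%) and 11 lateral-higher (1.51%). With 16 medial barcodes, single barcodes weighed heavily.

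Among the lateral-higher values, ENSSSCG00000036983 had 1747 UMIs in 32 lateral barcodes and 13 in 5 medial ones, 7980 and 224 CPM. The lateral value rested mostly on the 8 barcodes with at least 100 UMIs each, and the median over all lateral plasma cell barcodes was 1.5. PLA2G7, the secreted platelet-activating factor hydrolase, had 39 UMIs in 22 of 56 lateral barcodes, 178 CPM, and 0 in the medial ones. Against the limit that a count of 0 allows (3 counts over the medial barcodes, 51.7 CPM) it was at least 3.45-fold higher in the lateral library, taking the lateral level without its own interval of 127 to 244 CPM. CTSS, a lysosomal protease, had 21 UMIs in 15 lateral barcodes and 1 in 1 medial barcode, a log2 ratio of -1.64 that passed the limit only in the second scaling (-2.56).

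The medial-higher values rested on few barcodes. HPS5 had 378 UMIs in 1 medial barcode and 16 UMIs in 15 lateral ones. DCN, a small matrix proteoglycan, had 62 UMIs in 3 medial barcodes against 21 in 9 lateral ones, SERPINF1, a secreted serpin, had 30 in 3 against 5 in 2, and COL1A1, a chain of type I collagen, had 250 in 7 against 141 in 17. Of the plasma cell identity genes named above, none of those compared between the libraries was called. On the log2 scale, medial over lateral, SLAMF7 stood at -0.27, TNFRSF17 at 0.19, TXNDC5 at 0.48 and POU2AF1 at 0.99, against the median of 0.59. In the second scaling they stood at -0.96, -0.47, -0.21 and 0.34 against the median of -0.03, so TNFRSF17 and TXNDC5 changed sign with the scaling.

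UMIs of cell cycle genes were highest in 4 barcodes. Of 16 such genes in the files, 0 of 3 compared were called, and the 72 barcodes held 108 and 58 UMIs of them, lateral and medial. TUBA1B, a tubulin gene of the list that is not limited to dividing cells, gave 56 and 38 of these UMIs. The 4 barcodes with the lowest share of the 4 unnamed features (2 lateral and 2 medial, all under 11%, a limit set after the values were seen) held 12 to 40 cell cycle UMIs each, and the other 68 held 0 to 8 (median 1). The same 4 barcodes had 6.53 to 10.3% mitochondrial UMIs against 0.224 to 5.89% in the other 68, and 1048 to 2694 genes against 201 to 1446. The first of them, a lateral barcode, had 10381 UMIs, the most of the 72, with 11 UMIs of MZB1, 8 of JCHAIN and 40 of cell cycle genes. The second, a medial barcode, had 17 UMIs of the 4 features in all, with 2 of MZB1 and 3 of JCHAIN, which is near the limits of the rule. The third, also medial, had all 9 of the plasma cell genes above, 13 UMIs of MZB1 and 40 of JCHAIN. The fourth, a lateral barcode, had 7 UMIs of MZB1 and 9 of JCHAIN. Of the same 9 genes the first barcode had 3, the second 1 and the fourth 4. None had more than 2 matrix UMIs. Scrublet called none of them, but it had not worked in the medial library, so this says nothing about the 2 medial ones. Depth outside the 4 features was higher in these barcodes and moved with the counts, and its part was not tested.

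**Figure D4:**
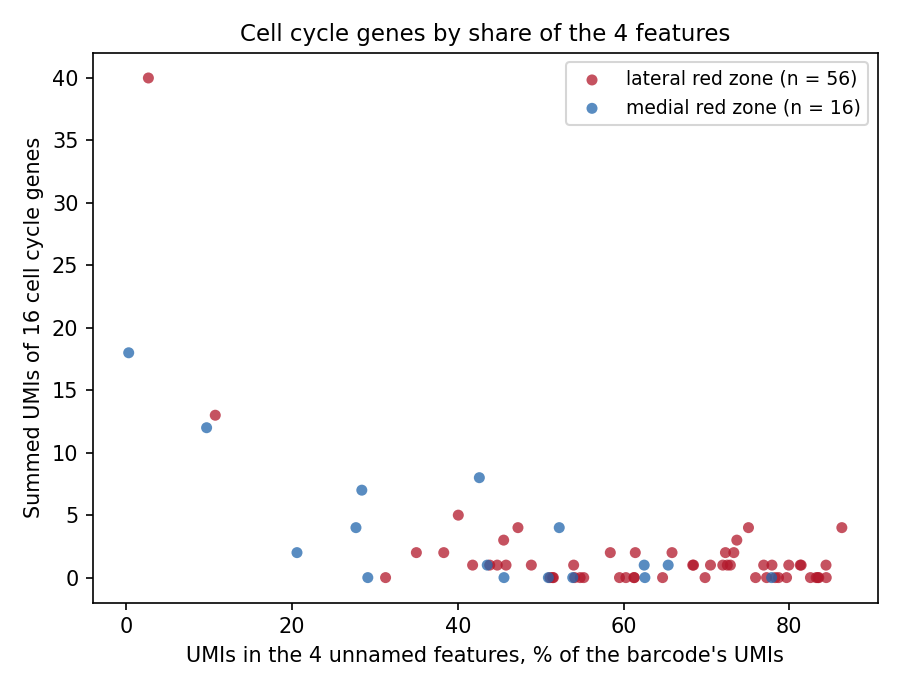
Summed UMIs of 16 cell cycle genes (vertical) against the share of a barcode's UMIs in the 4 unnamed features, in percent (horizontal), for the 56 lateral and 16 medial plasma cell barcodes. The 4 barcodes under 11% hold 12 to 40 cell cycle UMIs, and the other 68 hold 0 to 8.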

How the data were processed

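Single cells of 4 pig meniscus pieces, 1 library each, were sequenced with the 10x Genomics 3′ v3.1 chemistry, per the labels. The authors deposited, for each library, a matrix of UMI counts with genes as rows and barcodes as columns; the submitters' processing notes name Cell Ranger 6.1.2 and the pig genome Sscrofa11.1. Of 21280 features, 14811 had a symbol in the files and 688 were named from a separate reference table, which left 5781 unnamed.

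Counts were summed over the plasma cell barcodes and over the others with at least 200 genes in each red zone library, scaled to CPM and compared as log2 ratios with a pseudocount of 20 CPM, which understates changes of low genes. The size rule was 4-fold in both libraries, at a mean of at least 50 CPM. The script was tested on simulated data. With 1 library per piece no p-value was computed. Named genes were the 15 highest and 10 lowest called, genes of the identity list, up to 4 genes with the most UMIs of every other list, and the 5 largest medial to lateral ratios each way; others are named as examples of a count or because they were picked after their values were seen. Members and the 26 gene lists were chosen with earlier results of these data known. The planned immunoglobulin comparison found 0 of its 19 symbols and was made on 4 unnamed features. Exact Poisson and Clopper-Pearson intervals are at 95%. Barcodes were thinned to 500 UMIs for shares, with 1000 UMIs as an alternative, and barcodes in more than 1 gate were left out of the gates. Python 3.11.15, scipy 1.17.1, pandas 2.3.3 and scanpy 1.11.5 (Scrublet) were used.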

Additional observations from a re-analysis of the deposited data

How the results depend on the processing

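No paired analysis was possible because the labels give no replicate numbers and each piece has 1 library. The numbers of plasma cell barcodes stayed within 1.5 times of 56 and 16 under the 6 other settings of the limits and filters tried (44 to 80 lateral, 14 to 17 medial); MZB1 alone, without the JCHAIN and C1Q limits, gave 136 and 20. The separation of the unnamed pair, 98.6%, was 98.3% with at least 3 UMIs of both rule genes. Among the settings, leaving out Scrublet calls removed 0 of the plasma cell barcodes. Asking for at least 500 UMIs and at most 20% mitochondrial UMIs also removed 0. Neither setting could therefore change the numbers of these barcodes or the separation. The 19 higher and 287 lower genes depended on settings that define the call. With a pseudocount of 5 CPM 29 genes were higher, with 50 CPM 12 were higher and 130 lower, with a filter of 200 CPM 11 and 97, at 2-fold 49 and 806, and at 8-fold 9 and 51. Leaving out a library gave 26 to 36 higher and 333 to 553 lower: without the lateral red library 36 were higher, and without the medial red library 553 were lower. With barcodes of at least 2 UMIs of MZB1 taken out of the other barcodes, a run added later, 21 were higher and 291 lower. The scaling outside the 4 features, added after the data were seen, gave 69 higher, 13 of them among the 19, and 108 lower. The rest of the 19 are the 4 features and the 2 rule genes, which this scaling cannot call. By construction it leaves out what fills the plasma cell barcodes. Of the secretory genes, where 1 was higher, 2 were with a pseudocount of 5 CPM, 2 with at least 3 UMIs of both rule genes and 17 outside the 4 features. Between the libraries, 14 medial-higher and 3 lateral-higher genes became 25 and 7 with a pseudocount of 5 CPM and 7 and 11 outside the 4 features; 6 were lateral-higher among barcodes with at least 10% of UMIs in the 4 features, an alternative also added later. Outside the 4 features, values that were not called changed sign, among them SSR2, ATF4 and HSPA5 in the lateral library. Depth limits SDC1, IRF4, CD38 and CCR10, which had 6 UMIs or fewer in all, and every medial share, which rests on 16 barcodes.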

Other observations

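The ligands that plasma cells are known to use came from different cells of the red zone. TNFSF13B, which encodes BAFF, stood at 85.4 CPM in lateral and 64.7 CPM in medial macrophage-gated barcodes, against 3.86 and 0.542 CPM in endothelial-gated ones and 14.6 and 14.7 CPM in the ungated rest. TNFSF13, which encodes APRIL, a ligand of TNFRSF17, stood at 77.2 and 72.9 CPM in the macrophage gate, 2.90 and 4.88 in the endothelial gate and 14.1 and 15.3 in the rest. CXCL12, the ligand of CXCR4, was highest in the ungated rest, at 305 and 474 CPM, and stood at 196 and 166 CPM in the endothelial gate. IL6, a survival cytokine, stood at 193 and 104 CPM in the endothelial gate and 161 and 84.7 in the rest. VCAM1, an adhesion ligand of the integrin of ITGA4, stood at 680 and 709 CPM in the macrophage gate. It also stood at 433 and 209 CPM in the endothelial gate and 207 and 184 in the rest. The T or NK gate held only 78 and 69 barcodes. There VCAM1 stood at 103 and 193 CPM, TNFSF13B at 43.0 and 35.0 (5 and 4 UMIs) and CXCL12 at 0 and 184 (0 and 21 UMIs). CCL28, the ligand of CCR10, had 1 UMI in the lateral and 2 in the medial ungated barcodes and 0 in both the macrophage and endothelial gates. The gates hold 389 and 458 macrophage, 632 and 777 endothelial and 4537 and 5483 ungated barcodes, lateral and medial, and the values are sums over 1 library each, with no test.

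The feature ENSSSCG00000031037, without a symbol, was one of the 8 unnamed features higher in the plasma cell barcodes, with 136 UMIs in 27 lateral and 34 in 7 medial barcodes. It was found in 19 of 22 lateral barcodes high in ENSSSCG00000037775, in 0 of 8 high in ENSSSCG00000036983 and in 8 of 26 with neither. In the medial library it was found in 3 of 7 and 4 of 9, which does not show the same order.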
